A study of Mus musculus with 6 samples.

Results

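The 7 genes described here encode immune checkpoint ligands, costimulatory molecules and an activation marker: Cd274, Pdcd1lg2, Cd40, Cd80, Cd86, Lgals9 and Cd69. They were chosen by name, with earlier results of these data known, through the probe sets that the array annotation assigns to them. Shares of all genes given beside counts of the 7 are therefore a description, not a test. All 7 were measured, by 8 probe sets, among 19938 genes with a probe set naming a single gene. A probe set is a group of short probes read as 1 value. Transcript levels came from 6 whole-transcript mouse arrays, 1 for each of 3 cell lines unstimulated and after 4 h of interferon-beta (IFN-β). NIH3T3 is a fibroblast line from mouse embryos, L929 a fibroblast line from mouse connective tissue and RAW264.7 a mouse macrophage line. The labels name no genetic change and no agent other than IFN-β, and give no dose. The series was made to find genes whose transcription IFN-β regulates. No group had a replicate, so a difference within a line has no error, and only the 3 lines serve as replicates of the IFN-β effect. Nothing shows how far a second culture of a line would differ.

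T cells need a signal from their antigen receptor and costimulatory signals from the presenting cell. Cd80 and Cd86 (B7-1 and B7-2) give such a signal through CD28 and an inhibitory one through CTLA-4. Cd274 (PD-L1) and Pdcd1lg2 (PD-L2) bind the inhibitory receptor PD-1. Cd40 is a TNF receptor family member that receives a signal from CD40 ligand on T cells and drives the activation of macrophages, dendritic cells and B cells. Lgals9 encodes galectin-9, a lectin that binds sugar chains on cell surface proteins. Cd69 is a C-type lectin-like membrane protein that appears early on activated leukocytes and holds them in tissue by acting on the receptor S1PR1. Type I interferons act through the receptor of Ifnar1 and Ifnar2, and a complex that includes STAT2 and IRF9 then binds interferon-stimulated response elements (ISRE) in target genes.

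Markers of macrophages and fibroblasts matched the labels. On the unstimulated arrays the 12 macrophage markers had a median log2 level of 10.59 in RAW264.7, against 4.13 in NIH3T3 and 4.27 in L929. The 12 fibroblast markers had medians of 10.63 for NIH3T3, 7.74 for L929 and 4.64 for RAW264.7. Medians of the dendritic cell, T and NK cell and B cell markers lay between 3.24 and 4.22 on these arrays, though the highest B cell marker read 7.55 in RAW264.7. Epithelial markers had medians of 4.80 for NIH3T3, 4.87 for L929 and 4.88 for RAW264.7, near the array medians. Array medians over all probe sets were 4.72 to 4.82 on 5 arrays and 5.05 on stimulated NIH3T3, and the change of a median gene was 0.17 for NIH3T3, -0.05 for L929 and -0.03 for RAW264.7 (log2). All 9 measured control genes of the interferon response, Ifit1 and Mx1 among them, were at least 3-fold higher in each line.

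IFN-β raised Lgals9 and Cd274 over the 3 lines, but the call of Cd274 was lost when either NIH3T3 or L929 was left out. Cd40 was at least 3-fold higher with IFN-β in L929 and RAW264.7, and Cd69 in RAW264.7, but neither passed the test over the lines. Cd80, Cd86 and Pdcd1lg2 stayed under 2-fold in each line. Of the 7 genes 2 rose and 0 fell at an adjusted p under 0.05 in limma, where 0.732% of all genes rose and 0% fell. At an unadjusted p under 0.05 there were 4 higher and 0 lower, where 4.2% of all genes were higher and 1.27% lower. Their median mean log2 change was 1.09, against 0.03 over all genes. From bulk RNA, more cells with a transcript and more transcript per cell cannot be told apart.

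**Figure D1:**
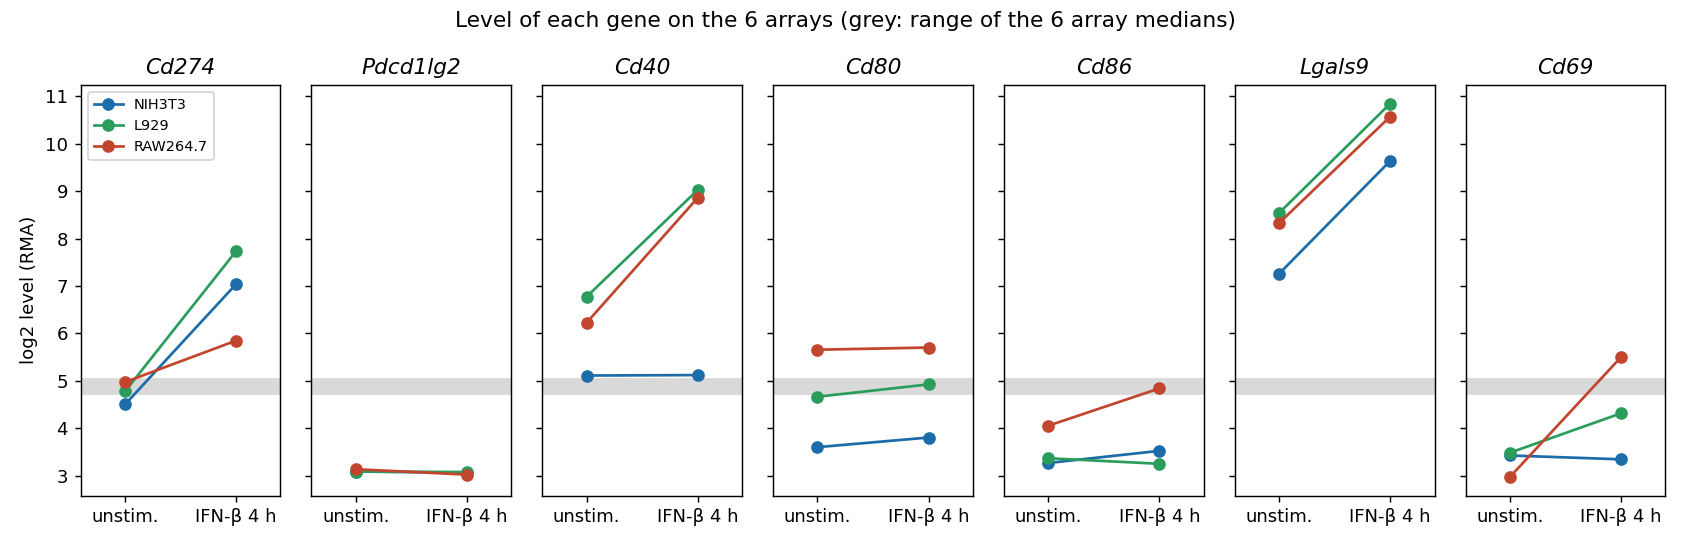
Log2 level (vertical axis) of each of the 7 genes on the unstimulated array and the array after 4 h of IFN-β, with 1 point per array and a line joining the arrays of 1 cell line. The grey band spans the 6 array medians, 4.72 to 5.05. The Lgals9 lines run in parallel, those of Cd274, Cd40 and Cd69 fan out, and those of Pdcd1lg2 are flat near 3.1.

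Among the genes of the 7 at least 3-fold higher in a line, Lgals9, the galectin-9 gene, had the most even response. Its log2 level (probe set 10388902) went from 7.26 to 9.64 in NIH3T3, from 8.54 to 10.85 in L929 and from 8.33 to 10.57 in RAW264.7. The lowest stimulated level, in NIH3T3, lay above the highest unstimulated one, in L929, so the groups did not overlap, as for 4.85% of all genes. It was 5.20-fold higher for NIH3T3, 4.95-fold for L929 and 4.74-fold for RAW264.7. The mean log2 change was 2.31 ± 0.16 (SE from limma, n = 3 lines), with an adjusted p of 9.79e-05 and an SD between lines of 0.07. The gene ranked 11 by p-value and 79 by mean change among 19938 genes. It kept its call when any line was left out, and lost it in the model without the cell line (adjusted p = 0.978). The fit without RAW264.7 gave all genes the same variance, so that call takes no account of the spread of Lgals9 itself.

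The order of Lgals9 levels was L929 over RAW264.7 over NIH3T3 in both conditions. L929 and RAW264.7 were 0.21 apart unstimulated and 0.27 apart stimulated, and NIH3T3 was the lowest. Without replicates, the closeness of the first pair cannot be set against a spread. Over all genes 0.732% rose and 0% fell, and of the 7 other galectins measured 1 rose and 0 fell. That was Lgals8, a galectin of the cytosol that marks damaged vesicles, with log2 changes of 1.05 for NIH3T3, 1.55 for L929 and 1.31 for RAW264.7 (mean 1.30 ± 0.17, SE, adjusted p = 0.00465 in limma). It was not called with every probe set tested together (adjusted p = 0.127), a setting where 14 of 35557 probe sets rose. Lgals1 and Lgals3, both at levels above 10 on all arrays, had mean log2 changes of -0.43 and 0.09. The median over the 7 galectins was 0.09.

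The RefSeq promoter table used here (build GRCm38.p6) was matched for 4 of the 7 genes, Cd274, Pdcd1lg2, Cd80 and Lgals9. Of these, the windows of the 2 genes that rose are shown beside that of Pdcd1lg2, the neighbour of Cd274 whose 6 levels lay within 0.11. Each is the 250 bases before the start site on the gene's strand, 5′ to 3′, in lower case, and capitals mark the core of an ISRE, GAAA, any 2 bases and GAAA again, on either strand. The windows lie at chr11:78984925-78985174 on the minus strand for Lgals9, chr19:29367188-29367437 on the plus strand for Cd274 and chr19:29410669-29410918 on the plus strand for Pdcd1lg2.
Lgals9: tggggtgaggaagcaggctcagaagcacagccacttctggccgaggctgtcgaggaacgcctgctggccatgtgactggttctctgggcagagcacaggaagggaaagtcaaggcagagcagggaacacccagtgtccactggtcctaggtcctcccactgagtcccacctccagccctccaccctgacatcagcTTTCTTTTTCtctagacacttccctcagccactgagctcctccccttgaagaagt
Cd274: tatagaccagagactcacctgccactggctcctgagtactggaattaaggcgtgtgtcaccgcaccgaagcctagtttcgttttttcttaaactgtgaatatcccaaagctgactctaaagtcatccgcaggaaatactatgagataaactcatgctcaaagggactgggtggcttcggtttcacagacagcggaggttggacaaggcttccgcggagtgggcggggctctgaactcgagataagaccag
Pdcd1lg2: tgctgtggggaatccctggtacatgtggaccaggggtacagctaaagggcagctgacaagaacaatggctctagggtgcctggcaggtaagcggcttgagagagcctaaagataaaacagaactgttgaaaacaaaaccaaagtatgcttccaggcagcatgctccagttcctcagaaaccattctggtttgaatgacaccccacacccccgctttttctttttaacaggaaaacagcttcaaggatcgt

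Over the full window of 300 bases, 250 before and 50 after the start, the ISRE core was in 3.44% of 32851 RefSeq promoters. Lgals9 held 2 matches, both on the opposite strand, at -55 to -46 (TTTCTTTTTC as read on the gene's strand) and at 16 to 25 after the start (TTTCTGTTTC). The windows of Cd274, Pdcd1lg2 and Cd80 held 0. The gamma-activated site TTCNNNGAA, a STAT motif that reads the same on both strands, was in 8.3% of promoters and in 0 of the 4 windows. A match is a run of letters, not a shown binding site, and its lack speaks for these windows only.

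Cd274, the PD-L1 gene, rose over the lines and had its larger changes on the fibroblast arrays. Its log2 level (probe set 10462390) went from 4.50 to 7.04 in NIH3T3, from 4.78 to 7.73 in L929 and from 4.97 to 5.85 in RAW264.7. Unstimulated, the 3 lines lay within 0.47 of each other, near the array medians. Stimulated RAW264.7 was the lowest of the 3 stimulated arrays and still above each unstimulated one. The groups thus did not overlap, as for 4.85% of all genes. The folds were 5.80 for NIH3T3, 7.77 for L929 and 1.83 for RAW264.7. The mean log2 change was 2.12 ± 0.33 (SE, n = 3 lines), with a limma adjusted p of 0.0139 and an SD between lines of 1.10. The call was lost without NIH3T3 (adjusted p = 0.138) and without L929 (adjusted p = 0.0575). It was kept without RAW264.7, in a fit that gave all genes the same variance. The call was also lost with robust empirical Bayes and a trend on mean level (adjusted p = 0.0912), with every probe set tested together (adjusted p = 0.336) and in the model without the cell line.

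The change of Cd274 in RAW264.7 minus the fibroblast mean of 2.75 was -1.87 ± 0.49 (SE, 95% interval -2.84 to -0.90). With limma's interaction term it did not pass (adjusted p = 0.0609), so a smaller response in RAW264.7 was not established. A negative difference was not particular to Cd274. All 9 measured control genes of the interferon response had one, from -0.44 for Mx1 to -3.86 for Usp18. Of these, Ifit1, Ifit3, Usp18 and Cxcl10 passed the interaction test and the others did not. The genes with the most similar profile over the 6 arrays were Ifit1bl2, Gbp11 and Parp10, whose centred levels differed from those of Cd274 by a root mean square of 0.32, 0.37 and 0.46. Ifit1bl2 had log2 changes of 1.76 for NIH3T3, 3.55 for L929 and 1.35 for RAW264.7. The likeness is a description over 6 arrays.

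Pdcd1lg2, the PD-L2 gene, lies next to Cd274 on chromosome 19, and was low on every array. Its log2 level (probe set 10462398) was 3.09 for NIH3T3, 3.09 for L929 and 3.14 for RAW264.7 unstimulated, and 3.06, 3.08 and 3.02 with IFN-β. All 6 values lay below the lower quartile of their array and spanned 0.11. The mean log2 change was -0.05 (95% interval -0.40 to 0.30, adjusted p = 0.981 in limma). At such a level the array may not respond to small amounts of transcript, and a change below its reach was not detectable. Plgrkt and Ric1, the genes on either side of the pair, had mean log2 changes of 0.02 and -0.15, and neither passed (adjusted p = 0.996 and 0.964).

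**Figure D2:**
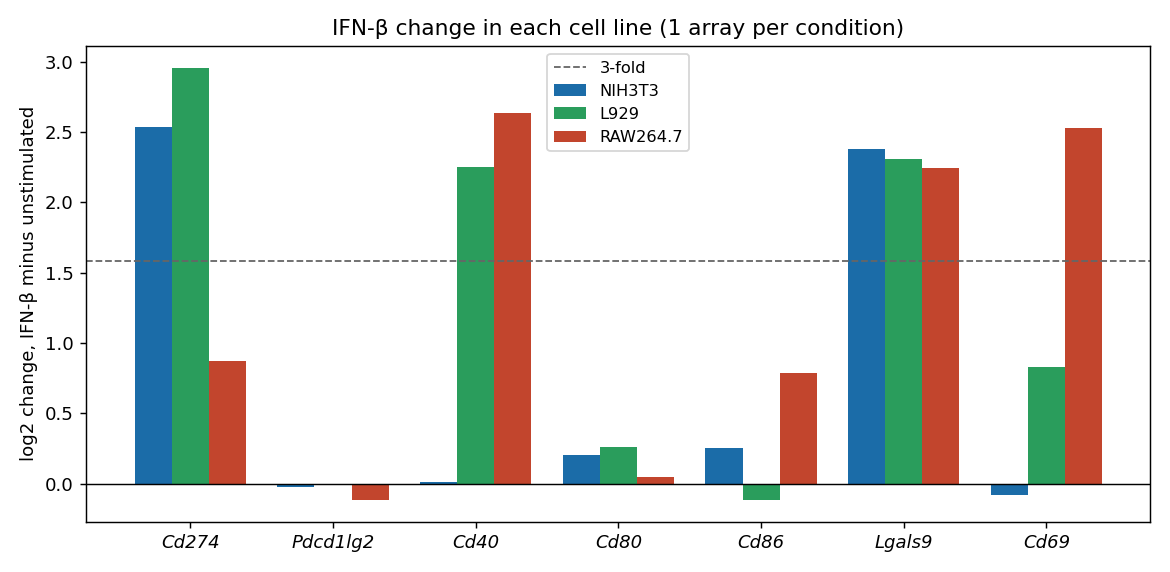
Log2 change, IFN-β minus unstimulated (vertical axis), of each of the 7 genes, with 1 bar per cell line from 1 pair of arrays and a dashed line at 3-fold. Lgals9 is past 3-fold in each line, Cd274 in NIH3T3 and L929, Cd40 in L929 and RAW264.7, and Cd69 in RAW264.7.

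At 3-fold, the threshold that the series' own description uses, 4 of the 7 genes were higher in at least 1 line, where 1.1% of all genes were. In NIH3T3 they were Cd274 and Lgals9 (background 0.476%), in L929 Cd274, Cd40 and Lgals9 (0.893%), and in RAW264.7 Cd40, Lgals9 and Cd69 (0.617%). Lgals9 alone passed in each line, as did 0.311% of all genes. With each array centred on its median these counts were again 2, 3 and 3. Centring lowers each change in NIH3T3 by 0.28, which takes Cd40, Cd80 and Cd86 there to log2 changes of -0.27, -0.07 and -0.02, so these small changes have no settled direction.

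Cd40, the receptor for CD40 ligand, was higher with IFN-β in L929 and RAW264.7 and level in NIH3T3. Its log2 level (probe set 10478678) went from 5.11 to 5.12 in NIH3T3, from 6.77 to 9.03 in L929 and from 6.23 to 8.86 in RAW264.7. The stimulated NIH3T3 array thus lay below the unstimulated arrays of the other lines, and the groups overlapped. The folds were 1.01 for NIH3T3, 4.77 for L929 and 6.20 for RAW264.7. The central 95% of all genes changed by -0.55 to 0.92 in NIH3T3 on the log2 scale, by -0.74 to 0.78 in L929 and by -0.50 to 0.63 in RAW264.7. Cd40 was inside that range in NIH3T3 and far above it in the other lines.

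Over the lines the mean log2 change of Cd40 was 1.63 ± 0.40 (SE, SD between lines 1.42), and its adjusted p of 0.194 in limma did not pass. Without NIH3T3 the mean was 2.44 and the adjusted p 0.000783. Without RAW264.7 they were 1.13 and 0.00762, although NIH3T3 and L929 differed by 2.24 in their changes. That fit had 1 residual degree of freedom and gave all genes the same variance, so this p takes no account of the spread of Cd40 itself. RAW264.7 minus the fibroblast mean was 1.50 ± 0.49 (adjusted p = 0.583), a contrast that averages NIH3T3 with L929. The difference between NIH3T3 and L929 was not tested.

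The genes nearest to Cd40 in profile were Gch1, Enpp4 and Fcgr4, at root mean square differences of 0.53, 0.67 and 0.67. Gch1, which encodes the first enzyme of tetrahydrobiopterin synthesis, had log2 changes of 0.06 for NIH3T3, 1.88 for L929 and 1.12 for RAW264.7. Signalling genes downstream of Cd40 did not pass. Traf3 and Chuk were not measured. Of 8 measured genes of that list, adapters of the TRAF family and NF-κB components among them, 0 rose and 0 fell in limma. For 0 of them was the unadjusted p under 0.05. Over all genes 0.732% rose and 0% fell, so a count of 0 in 8 is near that share and says little about the list. The median mean log2 change of the 8 was -0.05, with medians of 0.35 for NIH3T3, -0.42 for L929 and 0.16 for RAW264.7. Traf5 had the largest mean change, 0.29 (adjusted p = 0.964).

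Cd69, the early activation marker, was higher with IFN-β mainly in RAW264.7. Its log2 level (probe set 10548333) went from 3.43 to 3.34 in NIH3T3, from 3.48 to 4.32 in L929 and from 2.97 to 5.50 in RAW264.7. Unstimulated RAW264.7 was the lowest of the 6 arrays and stimulated RAW264.7 the highest. It went from percentile 17.9 to 60.4 of the probe sets of its array. The folds were 0.95 for NIH3T3, 1.78 for L929 and 5.76 for RAW264.7, and from so low a start the last is approximate. Over the lines the mean log2 change was 1.09 ± 0.38 (SE, SD between lines 1.32), which did not pass (adjusted p = 0.643).

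The change of Cd69 in RAW264.7 exceeded the fibroblast mean of 0.38 by 2.15 ± 0.49 (SE, 95% interval 1.18 to 3.12), with an adjusted p of 0.00799 for the interaction in limma. Cd69 was the 1 gene of the 7 to pass, in a test that called a larger change in RAW264.7 for 0.0802% of all genes and a smaller one for 0.155%. The fit gives every gene the same SE, taken from the fibroblast lines, and RAW264.7 had 1 pair of arrays, so line and pair cannot be told apart. After quantile normalization the difference was 2.38 and the adjusted p 0.22. The genes nearest to Cd69 in profile were Ifi206, the complement gene Cfb and Bmp10, at root mean square differences of 0.28, 0.33 and 0.40. Cfb had log2 changes of 0.77 for NIH3T3, 0.81 for L929 and 2.73 for RAW264.7.

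**Figure D3:**
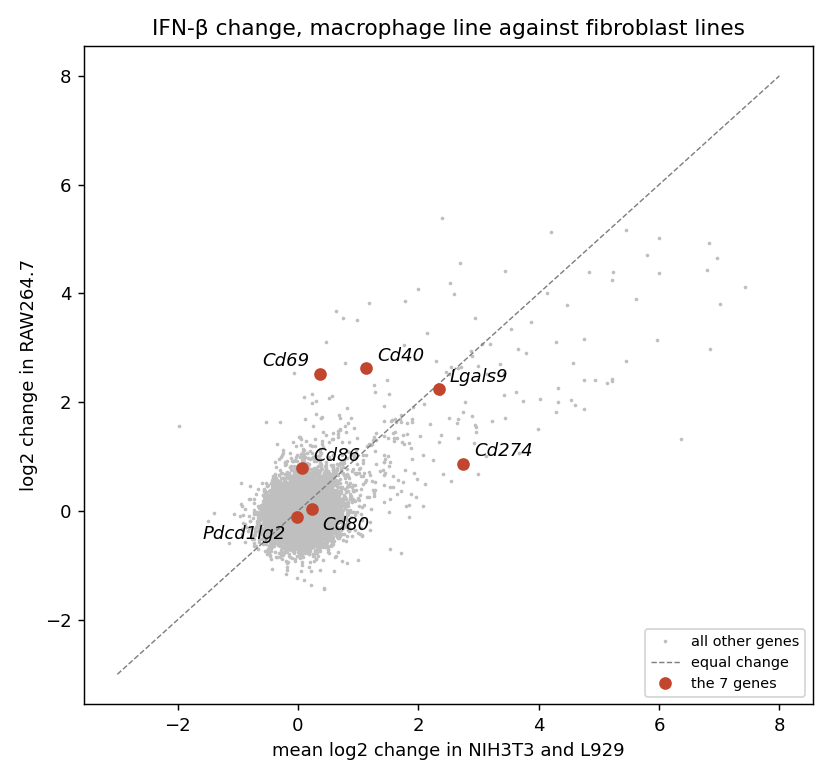
Log2 change in RAW264.7 (vertical axis) against the mean log2 change of NIH3T3 and L929 (horizontal axis) for 19938 genes, with the 7 genes in red and a dashed line of equal change. Lgals9 lies on the line, Cd69 at 2.53 against 0.38 and Cd40 at 2.63 against 1.13 lie above it, and Cd274 at 0.87 against 2.75 lies below it.

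Clec2d, the neighbour of Cd69 on chromosome 6 and a relative in the same lectin family, is a ligand of an inhibitory receptor of NK cells. It rose over the lines and was at least 3-fold higher in each. Its log2 level went from 7.43 to 9.48 in NIH3T3, from 5.18 to 9.51 in L929 and from 4.06 to 7.13 in RAW264.7, a mean change of 3.15 ± 0.34 (SE, adjusted p = 0.00145 in limma). With robust empirical Bayes and a trend the adjusted p was 0.0907, and with every probe set tested together 0.127. Of the 6 measured Clec2 relatives of Cd69 it was the 1 that rose and 0 fell, where 0.732% of all genes rose and 0% fell. The median mean change of the list was 0.31. Clec2m, the gene on the other side of Cd69, had a mean change of -0.0016.

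Cd80 and Cd86 encode the ligands of CD28 and CTLA-4, and on its brightest probe set each had its highest level in RAW264.7. Cd80 (probe set 10435704) was at a log2 level of 3.60 for NIH3T3, 4.66 for L929 and 5.66 for RAW264.7 unstimulated, and at 3.80, 4.92 and 5.70 with IFN-β. On this probe set the lines kept their order in both conditions, and no line changed by more than 0.26. The mean log2 change of 0.17 (95% interval -0.19 to 0.53) did not pass (adjusted p = 0.964 in limma). A second probe set of Cd80 (10435712) differed, with log2 changes of 0.76 for NIH3T3, 0.71 for L929 and -0.27 for RAW264.7. With IFN-β it read 4.76 for L929 and 4.49 for RAW264.7, so the order of the lines was not the same there. Its mean change of 0.40 ± 0.25 (SE) did not pass either (adjusted p = 0.957 over all probe sets).

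Cd86 (probe set 10439312) was at a log2 level of 3.27 for NIH3T3, 3.37 for L929 and 4.05 for RAW264.7 unstimulated, and at 3.52, 3.25 and 4.84 with IFN-β. The fibroblast arrays lay near or below the lower quartile. The RAW264.7 arrays lay higher and reached the median of the array only with IFN-β. RAW264.7 was 1.72-fold higher with IFN-β, a log2 change of 0.79 that lies above the central 95% of genes in that line. Over the lines the mean was 0.31 (95% interval -0.13 to 0.75, adjusted p = 0.964 in limma), and RAW264.7 minus the fibroblast mean was 0.72 (95% interval -0.25 to 1.68), which did not pass.

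**Figure D4:**
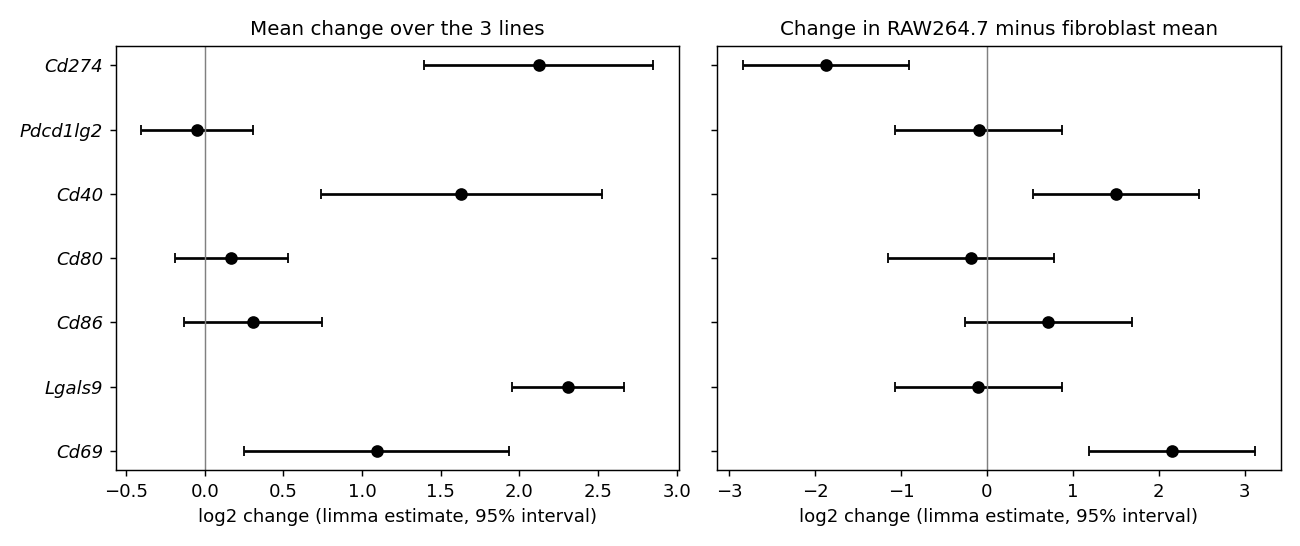
Limma estimates with 95% intervals, on the log2 scale, of the mean IFN-β change over the 3 lines (left) and of the change in RAW264.7 minus the mean of NIH3T3 and L929 (right) for the 7 genes. The intervals are per gene and unadjusted, so those of Cd40 and Cd69 at left leave out 0 although neither passed over all genes. The same holds for Cd274 and Cd40 at right, where Cd69 alone passed. At left the interval of Lgals9, 1.96 to 2.66, is narrower than that of Cd40, 0.74 to 2.53. The SE of each gene is drawn toward that of all genes, so these widths do not measure the spread between lines. The SD between lines was 0.07 for Lgals9 and 1.42 for Cd40. At right every gene has the same SE.

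Other ligands and receptors of these pathways were tested over the lines as well. Of 14 other B7 family and checkpoint ligands 1 rose and 0 fell in limma, where 0.732% of all genes rose and 0% fell. The median mean log2 change of these ligands was 0.15. Tnfrsf14, the HVEM receptor that binds BTLA on T cells, went from 5.64 to 6.70 in NIH3T3, from 5.23 to 7.03 in L929 and from 5.62 to 6.28 in RAW264.7 (mean change 1.17 ± 0.22, SE, adjusted p = 0.0442). Without NIH3T3 its adjusted p was 0.151, without L929 0.203, after quantile normalization 0.107 and with every probe set tested together 0.414. Cd276 (B7-H3) had a mean log2 change of 0.09 and Icosl one of 0.14, and neither passed. Of 11 receptors and partners, Pdcd1 (PD-1), Cd28 and Ctla4 among them, 0 rose and 0 fell, near the share of all genes. At an unadjusted p under 0.05 in limma there was 1 higher, where 4.2% of all genes were. That was Pdcd1, which also had the largest mean change, with log2 changes of 0.60 for NIH3T3, -0.03 for L929 and 1.19 for RAW264.7 (adjusted p = 0.769).

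Where 0.732% of all genes rose and 0% fell, 5 of 12 measured genes of interferon signalling and STAT or IRF factors rose and 0 fell. They were Irf7, Stat2, Irf1, Irf9 and Irf2, with mean log2 changes of 3.96, 3.13, 2.49, 2.22 and 1.23. Irf1, whose product binds ISRE-like sites, was at a log2 level of 7.05 for NIH3T3, 6.27 for L929 and 6.43 for RAW264.7 unstimulated, and at 8.85, 9.38 and 8.99 with IFN-β. Irf9, the DNA-binding subunit of the interferon complex, changed by 2.75 for NIH3T3, 3.23 for L929 and 0.68 for RAW264.7. Its unstimulated level was 7.58 in RAW264.7 against 4.74 for NIH3T3 and 5.17 for L929. Its call over the lines was lost without NIH3T3 (adjusted p = 0.268) and without L929 (adjusted p = 0.134), and that of Irf2 without L929 (adjusted p = 0.145). After quantile normalization Irf9 (adjusted p = 0.0874) and Irf2 (0.0505) were not called, and with robust empirical Bayes and a trend Irf7 (0.239) and Irf9 (0.788) were not. With every probe set tested together Stat2 alone of the 5 was called, and without the cell line in the model 0 were. With the probe sets of a gene averaged, the mean change of Irf1 was 1.51, and it kept its call.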

How the data were processed

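Total RNA from the 6 samples was labelled with an Affymetrix whole-transcript kit and read on 1 array each, per the labels' protocols. The authors deposited log2 values summarised per probe set by RMA, per the submitters' processing notes. RMA's settings were not given in the labels, and the base of the logarithm follows from the range of the values. The annotation names 1 gene for 21789 of 35557 probe sets, several for 1621 and none for 12147. Genes with several single-gene probe sets (999) were measured by the brightest, which for the 7 genes touched only Cd80. No filter was applied.

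The model of limma 3.58.1 (R 4.3.3) held cell line plus treatment (2 residual degrees of freedom, prior 7.87) and was run on 19938 genes, with Benjamini-Hochberg adjustment. Arrays pair by the cell line they share. Empirical Bayes draws each gene's spread toward that of all genes, so the SE of a gene that varies strongly between lines is too small. A second fit added RAW264.7 by treatment (1 residual degree of freedom, 1 variance for all genes, SE 0.49). Both were checked on simulated data with known changes. For the first fit these changes were the same in each line, so the check does not cover genes whose lines differ. Differences within a line have no test. Python 3.11.15 did the rest. Members, lists and the rule for named genes (all 7 genes with all their probe sets; the 3 nearest profiles, by root mean square difference of centred levels, where a gene ranged over at least 1; list genes that passed, led or reached 3-fold; neighbours) were chosen with earlier results of these data known. Genes named outside it, chosen after their values were seen, are Lgals1, Lgals3, Cd276, Icosl, S1pr1 and Cd47. Promoter sequences are RefSeq's. Alternatives covered probe set choice, a level filter, centring, quantile normalization, variance estimation, the block, each line left out and thresholds.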

Additional observations from a re-analysis of the deposited data

Results flagged for a closer look

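The IFN-β change of Cd69 in RAW264.7 exceeded that of the fibroblast lines by 2.15 on the log2 scale and passed limma's interaction test. RAW264.7 had 1 pair of arrays there. The SE was the same for all genes, taken from the fibroblast lines, so it does not measure the spread of Cd69 itself. The call was lost after quantile normalization (adjusted p = 0.22). In NIH3T3 the change of Cd69 was -0.08 and in L929 0.83. The second probe set of Cd80 moved one way in both fibroblast lines and the other way in RAW264.7, where its log2 change was -0.27. That difference was not tested.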

How the results depend on the processing

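Each group had 1 array, and no alternative replaces a replicate. Of the 7 genes, 2 were called over the lines, and 1 (Lgals9) with every probe set tested together or with robust empirical Bayes and a trend. Over all genes 146 rose in the main fit and 114 with robust empirical Bayes and a trend. With every probe set tested together 14 of 35557 rose, so most calls of the main fit were lost there, not only those named here. Without the replicate block, which pairs the arrays by cell line, 0 were called, where 2 of all genes were, Lgals9 and Cd274 being at 2.31 and 2.12 as before. Leaving out a line gave 1 to 3 called genes, where 116 to 218 of all genes rose. The 3 came without RAW264.7, in the fit that gave all genes the same variance. With the pairing kept, probe set means, the level filter (which removed Pdcd1lg2 and Cd86), centring, quantile normalization, a trend and an adjusted p under 0.1 each called Cd274 and Lgals9. At 5-fold 1 gene (Cd274) was higher in L929 and 2 (Cd40 and Cd69) in RAW264.7, in place of 3 each. For the difference of RAW264.7, 0 genes passed after quantile normalization and 2 (Cd69 and Cd274) at an adjusted p under 0.1. Small differences turned sign: centred on array medians, RAW264.7 minus fibroblasts was 0.10 for Pdcd1lg2, 0.0067 for Cd80 and 0.094 for Lgals9, and after quantile normalization 0.064 for Pdcd1lg2. These uncalled differences have no settled direction. The cause of the other changes was not tested.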

Other observations

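S1pr1, which encodes the receptor that the CD69 protein acts on, went from a log2 level of 6.84 to 5.40 in RAW264.7, a change of -1.43, on the pair of arrays where Cd69 was 5.76-fold higher. In NIH3T3 it changed by 0.14 and in L929 by 0.73, and its mean change over the lines did not pass (adjusted p = 0.967 in limma). The change of S1pr1 in RAW264.7 minus the fibroblast mean was -1.87, which did not pass limma's interaction test (adjusted p = 0.0631). A link between the changes of S1pr1 and Cd69 was not tested. Cd47, which gives macrophages a signal not to engulf a cell, was higher in each line, with log2 changes of 0.54 for NIH3T3, 0.50 for L929 and 1.27 for RAW264.7 (adjusted p = 0.216 in limma). The inducible synthase gene Nos2, a neighbour of Lgals9 on chromosome 11, changed by 0.48 for NIH3T3, 0.04 for L929 and 1.57 for RAW264.7 (adjusted p = 0.746 in limma), unlike the even change of Lgals9.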
